A study of Mus musculus with 2 samples.

Results

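Alveolar type 2 (AT2) cells, the surfactant-secreting cells of the lung alveolus, made up 1044 of the 19622 cells kept from 2 single-cell libraries of UV-positive mouse lung cells, or 5.32%. UV-positive cells are cells sorted from digested lung by the fluorescence of their own retinoids, through singlet gates and without dead cells. The mice were C57BL/6 males of wild type genotype, 3 months old and given no treatment, so the series holds 1 condition, and the libraries, sequenced on separate occasions, are called library 1 and library 2. The number of mice behind each library is not stated in the sources used here, and differences between the libraries therefore describe a spread that may be technical as well as biological. AT2 cells were chosen by their transcripts. A cell had to show 200 or more genes, no more than 10% mitochondrial unique molecular identifiers (UMIs, single captured transcripts), at least 1% of its UMIs from *Sftpc*, and at least 3 UMIs from *Abca3*, *Lamp3* and *Slc34a2* together. It also had to have fewer than 5 UMIs of the club cell genes *Scgb3a2* and *Cyp2f2*, no UMI of *Cdh5*, *Pecam1* or *Ptprc*, and less than 0.1% of UMIs from *Col1a1*, *Col1a2*, *Col3a1*, *Mfap4*, *Dcn* and *Pdgfra*. The values of these genes are therefore a description and not a finding, and so are the other epithelial genes that go with them.

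AT2 cells line the alveolus together with the flat alveolar type 1 cells, make the phospholipids and proteins of surfactant, store them in lamellar bodies and secrete them. They also divide and give rise to type 1 cells. Retinoids reach the lung as retinol bound to RBP4 or as retinyl esters in lipoproteins. In cells, LRAT esterifies retinol, hydrolases release it again, dehydrogenases oxidise it through retinaldehyde to retinoic acid, and retinoic acid acts through the RAR and RXR nuclear receptors. In the lung, storage of retinyl esters is best known from lipid-laden fibroblasts.

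Some of the genes with which AT2 cells are recognised lie on separate chromosomes. The surfactant genes *Sftpa1* (chr14:41131782-41136452) and *Sftpd* (chr14:41172214-41185149) lie near each other, on the chromosome of *Sftpc*. On GRCm38, *Sftpc* lies at chr14:70520949-70524081 on the minus strand, *Sftpb* at chr6:72304610-72314371 on the plus strand, *Abca3* at chr17:24351950-24410201 on the plus strand and *Lamp3* at chr16:19653378-19706375 on the minus strand. *Lrat*, the retinol esterifying gene to which AT2 levels are set below, lies at chr3:82892579-82903973 on the minus strand. The 250 bases before the RefSeq start of 3 of the genes AT2 cells share are printed here because these held a core motif of a lung epithelial transcription factor. Sequences are from RefSeq on GRCm38.p6, 5′ to 3′ on the strand of the gene, with matches in capitals: CTCAAG, the core bound by NKX2-1, in *Sftpb* (chr6:72304360-72304609, plus strand) and *Sftpa1* (chr14:41131538-41131787, plus strand), and TGTTTAC, the core bound by FOXA factors, in *Lamp3* (chr16:19706366-19706615, minus strand).
Sftpb: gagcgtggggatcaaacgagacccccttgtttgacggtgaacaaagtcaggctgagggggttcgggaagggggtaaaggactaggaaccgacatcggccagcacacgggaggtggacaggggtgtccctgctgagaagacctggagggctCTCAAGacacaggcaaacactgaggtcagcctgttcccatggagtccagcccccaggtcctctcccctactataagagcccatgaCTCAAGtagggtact
Sftpa1: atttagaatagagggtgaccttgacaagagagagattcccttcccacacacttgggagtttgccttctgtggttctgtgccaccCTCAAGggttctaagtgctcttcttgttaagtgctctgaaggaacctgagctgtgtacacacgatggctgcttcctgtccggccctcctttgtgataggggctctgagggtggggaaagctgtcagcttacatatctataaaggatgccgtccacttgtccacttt
Lamp3: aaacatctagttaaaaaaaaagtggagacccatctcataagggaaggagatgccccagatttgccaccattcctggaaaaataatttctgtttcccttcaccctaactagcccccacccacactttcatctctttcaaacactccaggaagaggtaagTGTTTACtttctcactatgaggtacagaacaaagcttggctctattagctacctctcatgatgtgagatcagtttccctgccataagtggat
The *Sftpb* window held 2 matches to CTCAAG and the *Sftpa1* window 1, and the *Lamp3* window held 1 match to TGTTTAC. Both strands were searched and the motifs share no letters in these windows. Of 32817 promoter windows of this length, 13.3% held CTCAAG and 3.16% held TGTTTAC on either strand, so a match is a description of the letters and not a binding site. The windows of *Abca3*, *Slc34a2*, *Cxcl15*, *Lyz2*, *Hc*, *Lrat* and *Aldh1a7* held neither. *Sftpc*, *Sftpd*, *Napsa* and *Scd1* had no entry in the promoter table.

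The deposited barcodes numbered 9669 in library 1 and 10050 in library 2, with 48762735 and 93970185 UMIs in all, and 9634 and 9988 of them were kept. Library 1 gave 942 AT2 cells, 9.78% of its kept cells with an exact 95% binomial interval of 9.19 to 10.4%. Library 2 gave 102 AT2 cells, 1.02% with an interval of 0.833 to 1.24%, so that the share was 9.57 times as high in library 1. The intervals cover counting error only. Library 1 AT2 cells had a median of 9288.5 UMIs and 2322.5 genes, and library 2 AT2 cells a median of 14188 UMIs and 3071 genes. Median mitochondrial shares were 2.93% and 4.70%. The UMIs of AT2 cells summed to 8703859 and 1435454. Levels are given as UMIs per 1000000 UMIs of the group (CPM), library 1 first, and 3 UMIs, taken as the floor of a count of 0, were worth 0.345 and 2.09 CPM. The UMIs were counted from the 3′ ends of transcripts and need no correction for transcript length. The libraries shared 23 barcode sequences, none of them among AT2 cells.

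Most cells that met the *Sftpc* limit in library 1 were AT2 cells and most in library 2 were not. Of 1167 kept cells with at least 1% *Sftpc* in library 1, 80.7% met all other limits. Of 342 in library 2, 29.8% did. The clause that alone kept out the most cells was the one on fibroblast genes, with 164 cells in library 1 and 100 in library 2. The clause on *Cdh5*, *Pecam1* and *Ptprc* alone kept out 19 and 40 cells, that on the club cell genes 22 and 2, and that on *Abca3*, *Lamp3* and *Slc34a2* 5 and 1. At the limit on fibroblast genes, the nearest cell inside had 0.0999% of its UMIs from them in library 1 and 0.0951% in library 2, and the nearest outside 0.102% and 0.10005%. No member was near the limit on *Sftpc*, the lowest having 5.27% in library 1 and 6.98% in library 2. Among members, 770 of library 1 (81.7%) and 61 of library 2 (59.8%) had no UMI at all of the 6 fibroblast genes. Members and other kept cells overlapped in *Sftpc*. Of the kept cells with 10 to 20% *Sftpc*, 193 of 323 in library 1 and 49 of 153 in library 2 were AT2 cells, and of those with 5 to 10% it was 6 of 19 and 4 of 99.

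Surfactant transcripts dominated these cells in both libraries. *Sftpc*, whose product is the small hydrophobic surfactant protein C, took a median of 23.8% of the UMIs of a cell in library 1, from 5.27 to 44.4%, and a median of 19.6% in library 2, from 6.98 to 31.3%. Its level over the group was 243197 and 200900 CPM, against 344 and 84.6 CPM in fibroblasts, where it was detected in 73.6% and 45.8% of cells. Fibroblasts here are 5265 and 4798 cells of the same libraries with at least 0.5% of UMIs from the 6 fibroblast genes. *Sftpa1*, a collectin of surfactant, had 29025 and 24651 CPM in AT2 cells. *Sftpb*, which with surfactant protein C spreads the lipid film, had 7406 and 9100 CPM. *Sftpd*, the other collectin, had 3508 and 4082 CPM. The libraries differed by less than 1.5 times in each of these 4 genes.

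Genes listed for the lamellar body and surfactant processing spanned a wide range of levels. The phosphate transporter *Slc34a2* had 2867 and 4368 CPM, the lamellar body membrane gene *Lamp3* 1132 and 1461 CPM, and *Abca3*, which pumps phospholipid into the lamellar body, 705 and 682 CPM. *Napsa*, an aspartic protease that processes surfactant proteins B and C and the only 1 of the 5 AT2 markers that the choice of cells did not use, had 2463 and 2407 CPM, against 4.53 and 1.25 CPM in fibroblasts and 576 and 370.5 CPM in immune cells. *Lpcat1*, which makes the dipalmitoyl phosphatidylcholine of surfactant, had 1098 and 947 CPM, and the complement component gene *Hc* had 1712 and 1556 CPM. *Ctsh*, another protease of surfactant protein processing, had 815 and 957 CPM. *Pgc* was low, at 3.56 and 2.09 CPM. *Napsa* is outside the rule but goes with the genes in it, so its level is a description and no independent check of the label.

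The regulators and junctions of alveolar epithelium were present at lower levels than the surfactant genes. *Nkx2-1*, the homeodomain factor of lung epithelium, had 204 and 246 CPM, *Cebpa* 250.3 and 261 CPM, *Etv5*, a target of FGF signals, 409 and 302 CPM and *Foxa2* 39.4 and 55.0 CPM. The progenitor factors *Sox9* and *Sox2* had 1 and 0 UMIs in all AT2 cells of library 1 and none in library 2. *Cebpd* went the other way from the rest, at 266 and 273 CPM against 2358 and 2162 CPM in fibroblasts. Among junction and keratin genes, *Cldn18* had 777 and 711 CPM, *Cldn3* 465 and 479.99 CPM, *Krt8* 281 and 233 CPM and *Epcam* 233 and 235 CPM. Of the genes that move salt and water across the epithelium, *Atp1b1*, a subunit of the sodium pump, had 654 and 1294 CPM, the water channel gene *Aqp5* 527 and 439.6 CPM, *Scnn1a* 71.5 and 132 CPM and *Cftr* 29.4 and 39.7 CPM.

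Transcripts of secreted defence proteins were also abundant. *Lyz2*, a lysozyme, had 41070 and 35771 CPM, the lung chemokine gene *Cxcl15* 6580 and 6033 CPM, *Wfdc2* 3486 and 3145 CPM, *Chil1* 2272 and 2255 CPM and the siderophore-binding *Lcn2* 972 and 1017 CPM. *Lyz1*, a near copy of *Lyz2* whose reads may be divided between them in counting, had 2594 and 1340 CPM. *Ltf* had no UMI.

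**Figure D1:**
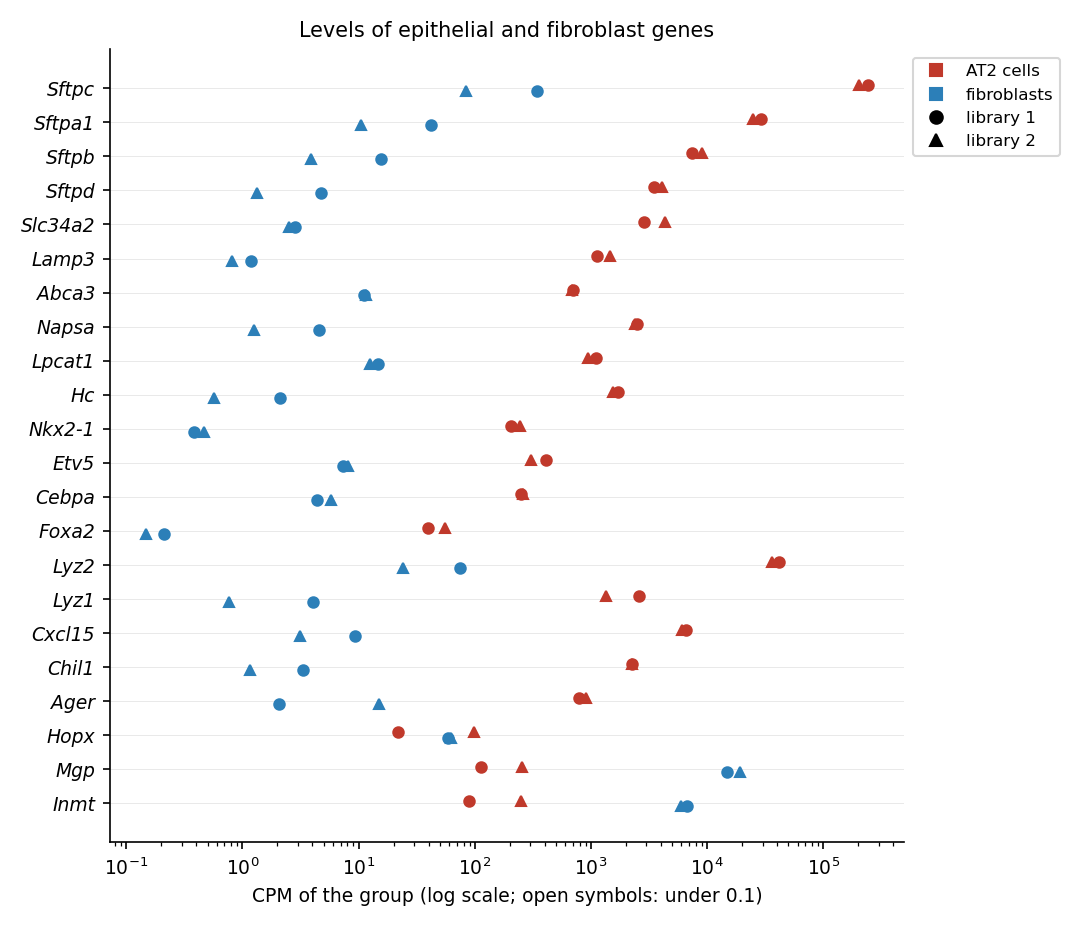
Levels of 22 epithelial and fibroblast genes in AT2 cells (red) and fibroblasts (blue) in CPM on a log axis, with circles for library 1 and triangles for library 2. The surfactant, lamellar body, transcription factor and defence genes lie to the right in AT2 cells in both libraries, *Mgp* and *Inmt* lie to the right in fibroblasts, and *Hopx* overlaps between them.

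AT2 cells were then compared with fibroblasts, and with the endothelial (44 and 433) and immune (159 and 221) cells of the same libraries in 1 fit, by the quasi-likelihood test of edgeR on UMIs summed by library. In endothelial cells 3 UMIs were worth 28.8 and 0.904 CPM, and in immune cells 5.27 and 2.46 CPM. Endothelial levels of library 1 near 28.8 CPM thus rest on few UMIs. The cells of each group were picked by their transcripts, so the adjusted p-values are no evidence that the groups are distinct. They set a difference against a spread estimated over all groups of the fit, with information shared between genes. A call thus does not require that the AT2 cells of the 2 libraries agree. Genes used to pick cells were left out. Against fibroblasts 12149 genes were tested, of which 2685 (22.1%) were higher and 2839 (23.4%) lower in AT2 cells, or 45.5% in all. Against endothelial cells 39.0% were called (19.3% higher and 19.7% lower) and against immune cells 44.2% (23.8% higher and 20.4% lower). *Sftpc* alone held 24.3% and 20.1% of AT2 UMIs, and the scale mattered. The median log2 fold change of all genes against fibroblasts was -0.07 with TMM scaling and -0.65 without a normalization factor, and the calls were then 1738 higher and 5385 lower. Higher genes were 48.6% of the calls with TMM and 24.4% without.

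Genes of lipid synthesis were nearly all higher in AT2 cells. Of 23 listed genes, all tested, 21 were higher and 2 lower than in fibroblasts, with a median log2 fold change of 3.42, where 22.1% of all genes were higher. *Scd1*, the desaturase that makes monounsaturated fatty acids, had 3353 and 2844 CPM in AT2 cells and 19.7 and 28.7 CPM in fibroblasts, with no overlap. The log2 fold change was 7.59 with an SE of 0.37 (adjusted p = 6.1e-15), and SEs follow other fold changes after ±. At 2000 UMIs a cell it was detected in 97.2% and 94.1% of AT2 cells against 3.34% and 4.09% of fibroblasts. *Fasn*, the fatty acid synthase, had 676 and 574 CPM against 27.8 and 23.3 CPM (log2 fold change 5.19 ± 0.29). *Elovl1*, an elongase, had 958 and 688 CPM against 49.5 and 54.8 CPM, and *Acly*, which supplies acetyl-CoA, 253 and 195 CPM against 24.1 and 29.5 CPM. The fatty acid carrier *Fabp5* had 2587 and 1271 CPM against 14.4 and 12.1 CPM (log2 fold change 7.72). The sterol and lipid regulators differed less. *Srebf1* had 104 and 69.0 CPM against 44.0 and 30.1 CPM, a log2 fold change of 1.81 ± 0.25.

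The genes that were lower in this list are the choline phosphotransferase *Chpt1*, at 73.4 and 97.5 CPM against 207 and 259.8 CPM in fibroblasts (log2 fold change -0.88 ± 0.24, adjusted p = 0.0034), and the elongase *Elovl6*, which had no UMI in AT2 cells of either library and 6.82 and 11.8 CPM in fibroblasts. *Chka*, the choline kinase that opens the same phosphatidylcholine route, was higher, at 125 and 164 CPM against 8.94 and 17.3 CPM. Against endothelial cells 22 of the 23 genes were higher and 1 lower, where 19.3% and 19.7% of all genes were. Against immune cells it was 21 and 1, where 23.8% and 20.4% of all genes were. *Scd1* had 38.3 and 7.83 CPM in endothelial and 21.1 and 28.8 CPM in immune cells. Without a normalization factor 19 genes stayed higher and 2 lower against fibroblasts, where 1738 and 5385 of 12149 genes were.

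**Figure D2:**
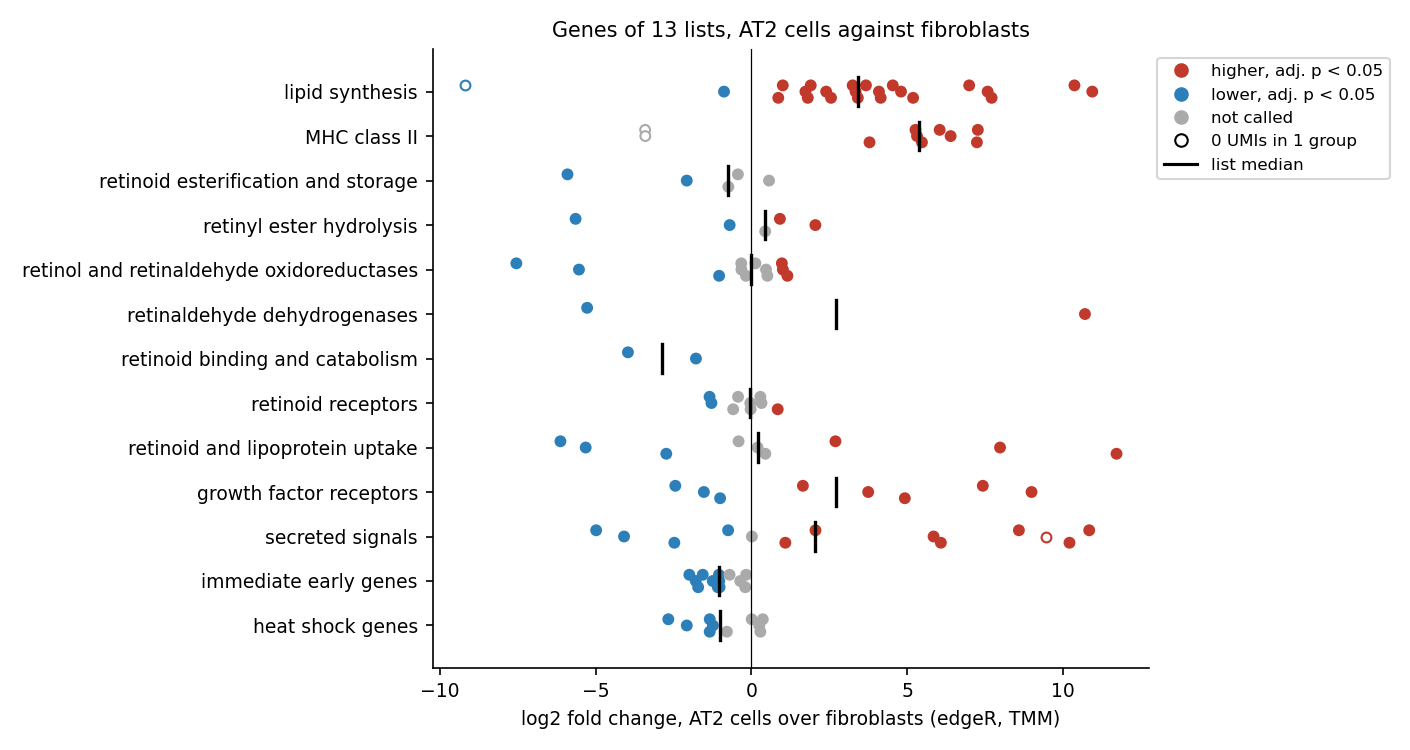
Log2 fold changes of AT2 cells over fibroblasts (edgeR, TMM) for each tested gene of 13 lists, red where higher and blue where lower at an adjusted p under 0.05, grey where not called, open where a group had no UMI, with a bar at the list median. Lipid synthesis and MHC class II lie mostly to the right, the immediate early genes to the left, and the retinoid lists on both sides of 0.

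MHC class II genes, which present peptides from outside the cell to CD4 T cells, lay between stroma and immune cells. *Cd74*, the invariant chain, had 3775 and 2835 CPM in AT2 cells, 40.5 and 25.5 CPM in fibroblasts, 479 and 434 CPM in endothelial cells and 13654 and 9670 CPM in immune cells. The 4 groups did not overlap. The log2 fold change was 7.24 ± 0.31 over fibroblasts, 3.63 over endothelial cells and -1.47 over immune cells. *H2-Aa*, a chain of the peptide-binding dimer, had 852 and 640.2 CPM, against 13.98 and 12.3 CPM in fibroblasts (log2 fold change 6.40 ± 0.29) and 4264 and 3528 CPM in immune cells (-2.05). Of 10 genes in the list, 8 were higher than in fibroblasts and none lower, 7 were higher than in endothelial cells, and all 10 were lower than in immune cells, with medians of 5.40, 1.63 and -2.44. Among all genes, 22.1% were higher than in fibroblasts, 19.3% higher than in endothelial cells and 20.4% lower than in immune cells. *Ciita*, the master regulator of the class, had 16.4 and 6.97 CPM in AT2 cells and 36.9 and 45.2 CPM in immune cells. *H2-Oa* and *H2-Ob* had no UMI in AT2 cells.

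The class II signal was spread over the AT2 cells and did not come from a few of them. *Cd74*, *H2-Aa*, *H2-Ab1* and *H2-Eb1* together were detected in 99.7% of AT2 cells of library 1 and 99.0% of library 2, at a median of 0.541% and 0.387% of the UMIs of a cell. By the rule members had no UMI of *Ptprc*, so low immune markers partly follow from the choice of cells. Markers of immune cells were near 0 in the same cells: *Tyrobp* had 1 UMI in each library, *Coro1a* and *Laptm5* none, and *Fcer1g* 9 and 0. *Lcp1*, an actin-bundling gene of the same list, had 95.7 and 89.2 CPM. The alveolar macrophage genes *Ear2* and *Marco* had no UMI and *Chil3* 1 and 2.

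The retinol esterifying gene was low in AT2 cells. *Lrat* had 28 UMIs in library 1 and 4 in library 2, 3.22 and 2.79 CPM, against 325 and 156 CPM in fibroblasts, 67.1 and 24.4 CPM in endothelial cells and 1.76 and 1.64 CPM in immune cells. AT2 levels thus lay far below fibroblasts (log2 fold change -5.91 ± 0.34, adjusted p = 1.3e-13) and below endothelial cells (-3.09), while the difference from immune cells was not called (0.81, adjusted p = 0.49). At 2000 UMIs a cell, *Lrat* was detected in 0.430% and 0.980% of AT2 cells, 40.4% and 21.6% of fibroblasts and 0.800% and 0% of immune cells (0 of 211, which allows up to 1.42%); without thinning the AT2 shares were 2.12% and 1.96% and the fibroblast shares 58.7% and 47.4%. Over the list of esterification and storage, 5 of 9 genes were tested against fibroblasts. With TMM none was higher, 2 were lower and 3 were not called, where 23.4% of all genes were lower. Without a normalization factor 4 were lower, where 5385 of 12149 genes were. *Plin2*, the coat of lipid droplets, had 83.9 and 86.4 CPM against 173 and 171 CPM and was not called with TMM (-0.43 ± 0.25, adjusted p = 0.17), but was called lower without a factor (-1.02). Besides *Lrat*, *Dgat2* was called lower, at 0.574 and 3.48 CPM against 4.45 and 16.4 CPM.

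This low *Lrat* level was close to the level at which fibroblast transcripts as such were found in AT2 cells. Over 11 fibroblast reference genes, AT2 cells had a median of 1.14% of the fibroblast level in library 1 and 2.93% in library 2, from 0.699 and 1.24% for *Fbn1* to 17.3 and 18.5% for *Col6a1*. *Lrat* stood at 0.990 and 1.78% of the fibroblast level. In the 770 and 61 AT2 cells with no UMI of the 6 fibroblast genes, *Lrat* stood at 0.221 and 0.747%, that is 5 and 1 UMIs. Of the reference genes in those cells, *Inmt* stood at 0.255 and 0.779%, *Mgp* at 0.166 and 0.381% and *Bgn* at 0.341 and 0.204%. *Col6a1* stayed at 17.2 and 17.1%. The rule limits fibroblast genes, so low reference levels partly follow from the choice of cells. Whether free RNA of fibroblasts gave the *Lrat* UMIs was not tested.

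Part of the oxidation route was low as well. *Aldh1a1*, which makes retinoic acid, had 9.54 and 35.5 CPM in AT2 cells and 687 and 1610 CPM in fibroblasts (log2 fold change -5.28 ± 0.31), 1.39 and 2.21% of the fibroblast level, and 0.209 and 0.435% in the cells without fibroblast UMIs. *Adh1*, a retinol dehydrogenase of the cytosol, had 2.07 and 4.18 CPM against 177 and 179 CPM (-5.54 ± 0.36), and 0.487% and no UMI in those cells. The lysosomal ester hydrolase *Lipa* had 1.15 and 3.48 CPM against 112 and 149 CPM (-5.65 ± 0.39), and 0.257% and no UMI. *Aldh1a2* had no UMI in AT2 cells of either library and *Aldh1a3* 1 and 0, and both were under 1 CPM in fibroblasts.

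Other genes of the retinoid lists were not low in AT2 cells. *Aldh1a7*, a close relative of *Aldh1a1*, had 68.2 and 67.6 CPM in AT2 cells. Whether its product makes retinoic acid was not tested. Fibroblasts, at the *Aldh1a1* level given above, had 0.0847 and 0.0245 CPM of *Aldh1a7*, or 2 and 1 UMIs. It was detected in 13.3% and 6.86% of thinned AT2 cells and in 0% (0 of 4637 cells, which allows up to 0.0647%) and 0.0210% of fibroblasts. *Dhrs3*, which reduces retinaldehyde back to retinol, had 111 and 151 CPM against 99.6 and 75.4 CPM in fibroblasts (1.16 ± 0.28, adjusted p = 0.0013), a call that was lost without a normalization factor (0.58, adjusted p = 0.098). *Ces1d*, a carboxylesterase able to hydrolyse retinyl esters, had 429 and 374 CPM against 453 and 431 CPM, with a fold change that was not called (0.44 ± 0.24, adjusted p = 0.14) and changed sign without a factor (-0.14). It lay far above endothelial cells at 38.3 and 50.6 CPM (3.79). *Pnpla2*, the lipase of triglyceride droplets, had 84.0 and 147 CPM against 32.5 and 49.0 CPM (2.06 ± 0.23). *Rdh10*, the main retinol dehydrogenase of the embryo, had 15.1 and 10.4 CPM against 9.49 and 10.7 CPM.

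Of 12 oxidoreductase genes, 3 were higher (*Dhrs3*, *Rdh10* and *Rdh11*), 3 lower (*Adh1*, *Adh7* and *Rdh14*) and 6 not called, shares close to the 22.1% and 23.4% of all genes. Without a normalization factor none was higher and 5 were lower, where 1738 of 12149 genes were higher and 5385 lower. With DESeq2 1 was higher and 2 were lower, and without the library block 1 and 3. In the list of ester hydrolysis 2 of 5 tested genes were higher and 2 lower, or 1 and 1 with DESeq2 or without the block. Without a factor it was 1 and 2, where 1738 and 5385 of 12149 genes were.

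*Rbp4*, the carrier that takes retinol out of cells and through blood, stood apart from the other low genes. It had 40.8 and 34.8 CPM in AT2 cells against 261 and 134 CPM in fibroblasts (log2 fold change -1.78 ± 0.25, adjusted p = 1.8e-06), 0 and 0.603 CPM in endothelial cells and 0 and 0.821 CPM in immune cells. This was 15.6 and 26.0% of the fibroblast level, above 10 of the 11 reference genes in library 1 and all of them in library 2, and it was 15.1 and 27.0% in the AT2 cells with no UMI of the fibroblast genes. It was detected in 7.95% and 6.86% of thinned AT2 cells, against 13.4% and 9.48% of fibroblasts and in none of the thinned immune cells (0 of 125 and 0 of 211, which allows up to 2.40% and 1.42%). The catabolic genes *Cyp26a1* and *Cyp26b1* had 1 UMI each in library 1 and none in library 2, whereas *Cyp26b1* had 211 and 56.6 CPM in endothelial cells. *Crabp1* had no UMI.

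The RAR and RXR genes were under 100 CPM in all 4 groups. *Rara* had 8.73 and 9.06 CPM in AT2 cells against 29.6 and 38.8 CPM in fibroblasts (-1.28) and *Rarg* 11.03 and 11.8 CPM against 42.1 and 45.7 CPM (-1.34), both called lower. *Rarb* had 2 and 0 UMIs and *Rxrg* none. *Rxra* had 11.4 and 14.6 CPM against 24.9 and 33.5 CPM and was not called. Over 9 receptor and corepressor genes tested, 1 was higher, 2 were lower and 6 were not called. Over all genes 22.1% were higher and 23.4% lower. The higher gene of the 9 was the corepressor *Ncor1*, at 160.0 and 192 CPM against 129 and 166 CPM. Without a normalization factor none of the 9 was higher and 3 were lower, where 1738 and 5385 of 12149 genes were. Without the library block none was higher and 2 were lower.

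**Figure D3:**
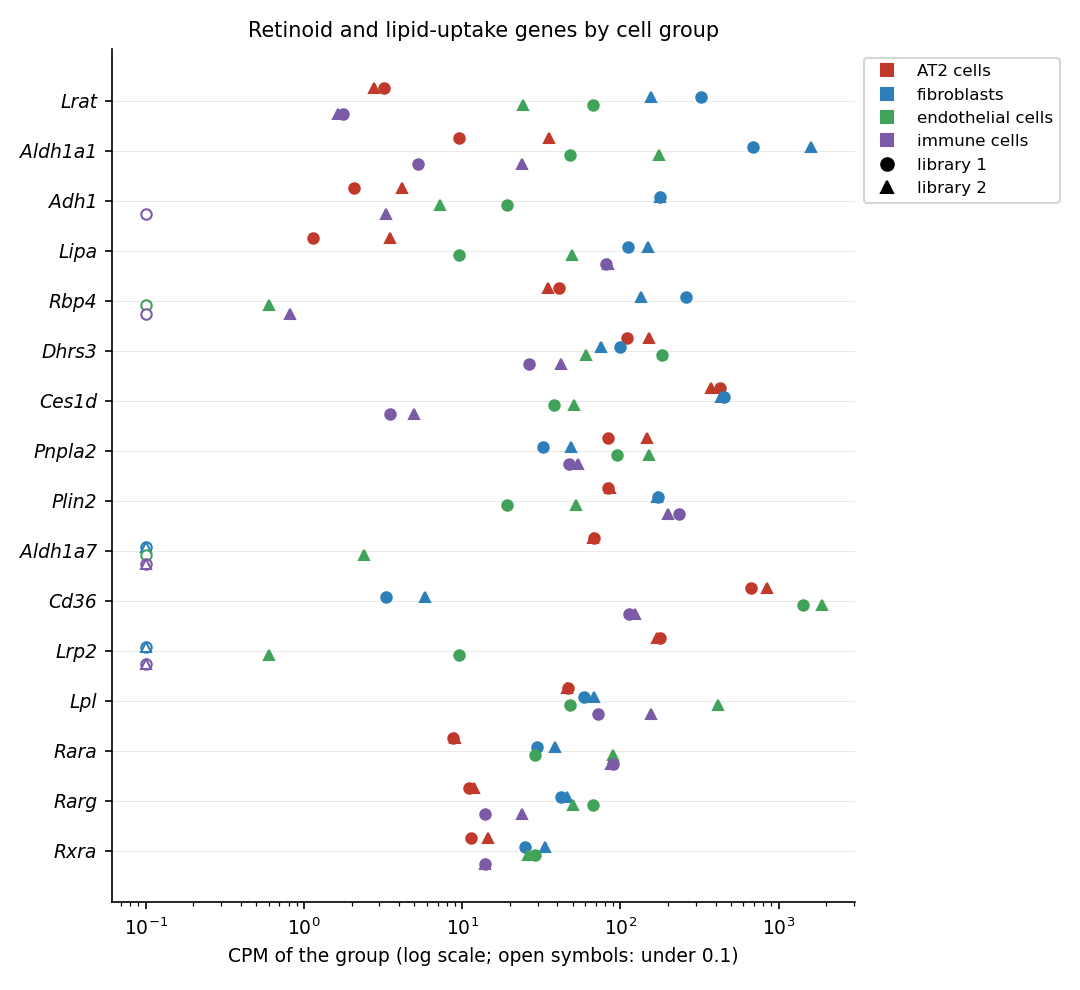
Levels of 16 genes of the retinoid and lipid uptake lists in AT2 cells, fibroblasts, endothelial and immune cells in CPM on a log axis. Circles are library 1, triangles library 2 and open symbols values under 0.1. *Lrat*, *Aldh1a1*, *Adh1* and *Lipa* lie far below fibroblasts in AT2 cells, *Ces1d* is level with them, and *Aldh1a7* and *Lrp2* stand above every other group.

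Uptake genes differed from fibroblasts in both directions. Of 9 tested uptake genes, 3 were higher, 3 lower and 3 not called, where 22.1% of all genes were higher and 23.4% lower. Without a factor 3 were higher and 4 lower, where 1738 and 5385 of 12149 genes were. *Cd36*, a scavenger receptor for fatty acids and lipoproteins, had 671 and 844 CPM in AT2 cells against 3.30 and 5.79 CPM in fibroblasts (7.99 ± 0.33), 1428 and 1868 CPM in endothelial cells and 114 and 123 CPM in immune cells (3.02). It was lower than in endothelial cells in both libraries by CPM, but with TMM the fold change was -0.27 (adjusted p = 0.43), and it was called lower without a factor (-1.12). Thinned cells with a UMI were 73.4% and 76.5% of AT2 cells and 0.690% and 1.40% of fibroblasts. The capillary genes *Gpihbp1* (1 and 5 UMIs) and *Cldn5* (1 and 5 UMIs) were near 0 in AT2 cells. *Lrp2*, megalin, which takes up RBP4 and many other ligands, had 177 and 170.0 CPM, while fibroblasts had 2 UMIs in each library. *Stra6*, the receptor for RBP4 of other tissues, and its relative *Stra6l* had no UMI in AT2 cells. Among the lower genes *Lrp1*, a broad lipoprotein receptor, had 8.62 and 20.9 CPM against 733 and 802 CPM.

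Receptors and signals by which AT2 cells and their neighbours communicate differed in both directions. Of 8 tested receptors 5 were higher and 3 lower than in fibroblasts, where 22.1% of all genes were higher and 23.4% lower, and with DESeq2 or without the library block 2 were lower. *Fgfr2*, the receptor of FGF7 and FGF10, had 213 and 195 CPM against 9.32 and 10.8 CPM, *Met*, the receptor of hepatocyte growth factor, 102 and 107 CPM against 0.296 and 0.294 CPM, and *Erbb3* 40.6 and 49.5 CPM against 0.212 and 0.539 CPM. *Fgfr3*, *Egfr* and *Axin2* were lower, *Egfr* at 6.89 and 8.36 CPM against 21.2 and 64.3 CPM.

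Of 13 tested signals 8 were higher and 4 lower, against the same 22.1% and 23.4% of all genes, but DESeq2 called 5 higher and 3 lower. The alarmin *Il33* had 194 and 258 CPM in AT2 cells against 5.51 and 4.39 CPM in fibroblasts (6.09), and *Areg*, an EGF receptor ligand, 186 and 82.2 CPM against 0.254 and 0.0736 CPM. *Csf2*, the growth factor of alveolar macrophages, had 19.6 and 15.3 CPM, and *Pdgfa* 43.9 and 45.98 CPM against 31.8 and 31.3 CPM. Lower were *Csf1*, at 4.71 and 2.79 CPM against 32.2 and 48.2 CPM (-2.47), *Kitl*, at 4.02 and 5.57 CPM against 107 and 129 CPM (-4.09), *Wnt4* and *Bmp4*. *Bmp4* had 74.3 and 75.9 CPM against 199 and 177 CPM (-0.75, adjusted p = 0.011), a call that was lost with DESeq2 (adjusted p = 0.12) and without the library block (adjusted p = 0.089). *Vegfa* had 85.8 and 73.8 CPM against 163 and 82.0 CPM and was not called. *Cxcl5* had 5 and 3 UMIs and *Ccl20* none.

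Immediate early genes, which respond within minutes to signals and to handling of cells, were present in AT2 cells and lower than in fibroblasts. *Fos* had 1737 and 1297 CPM against 6097 and 3383 CPM (-1.03, adjusted p = 0.015), a call lost with DESeq2 (adjusted p = 0.20) and without the block (adjusted p = 0.13). *Junb* had 662 and 672 CPM against 4386 and 2732 CPM (-1.79) and *Ier2* 423 and 300.3 CPM against 1306 and 1219.6 CPM (-1.24). Of 13 genes none was higher, 9 were lower and 4 were not called, with a median of -1.04, where 23.4% of all genes were lower. All 13 were lower without a normalization factor, where 5385 of 12149 genes were, and 6 were lower without the block. Of 10 heat shock genes, 5 were lower and none higher, or 3 without the block and 3 with DESeq2. *Hspa1a*, an inducible chaperone, had 18.6 and 19.5 CPM against 111 and 120.3 CPM (-2.08), while *Hspa8*, its constitutive relative, had 838 and 704 CPM against 1089.6 and 853 CPM and was not called.

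Genes that mark other epithelial cells were examined within AT2 cells. *Ager*, the classical type 1 marker, had 781 and 909 CPM and *Aqp5* the levels given above. *Pdpn* had 10 and 5 UMIs, and *Rtkn2*, *Akap5*, *Igfbp2* and *Hopx* differed between the libraries. *Hopx*, a cofactor of type 1 cells, had 21.7 and 97.5 CPM, *Akap5* 2.87 and 23.7 CPM and *Igfbp2* 4 and 37 UMIs. A single cell of library 2 held 132 of the 224 UMIs (58.9%) of *Hopx*, *Igfbp2*, *Akap5* and *Rtkn2* in its library, and 7 cells with at least 5 of these UMIs held 81.3%. In library 1 the same 4 genes had 224 UMIs in 942 cells, and the highest cell held 5. The share of cells with a *Hopx* UMI after thinning was 3.54% and 6.86% in AT2 cells, below the 11.3% and 11.4% of fibroblasts. The higher type 1 signal of library 2 thus rested on few cells.

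Club cell transcripts other than those of the rule were detected widely at a low level. *Scgb1a1*, the main secretoglobin of club cells, had 519.7 and 309 CPM in AT2 cells against 28.1 and 32.1 CPM in fibroblasts, and was detected in 39.3% and 40.2% of thinned AT2 cells against 2.95% and 5.54% of fibroblasts. The 95th percentile of thinned AT2 cells was 4 and 3 UMIs and the highest cell 35 and 6. *Cbr2*, a carbonyl reductase, had 2205 and 3312 CPM. *Scgb3a1* had 2 and 0 UMIs and *Bpifa1* none. The ciliated cell gene *Foxj1* had 2 and 0 UMIs and *Tmem212* none. Among endothelial genes *Kdr* had 2 and 1 UMIs and *Plvap* 1 and 2, whereas *Esam* had 69.4 and 66.9 CPM and *Egfl7* 15.6 and 24.4 CPM. *Hba-a1* had 1 and 0 UMIs.

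Transcripts of mitosis were concentrated in 8 cells of library 1. The 9 mitosis genes had 645 UMIs in AT2 cells of library 1 and 2 UMIs in library 2, and 8 cells with at least 5 of them held 621 of the 645 (96.3%). These 8 cells had a median of 14638.5 UMIs and of 16.03% *Sftpc*, against 9260 UMIs and 23.9% in the other 934. *Stmn1*, which regulates microtubules and rises in dividing cells, had 4631 CPM in them and 304 CPM in the others. They still held *Sftpa1* at 18817 CPM, against 29163 CPM. *Mki67* had 13.8 CPM in library 1 and 0.697 CPM in library 2, a single UMI. Of 12 cell cycle genes 10 were called higher than in fibroblasts, where 22.1% of all genes were higher. With DESeq2 it was 4, and 7 of the 12 had no UMI in AT2 cells of library 2.

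The libraries were compared with no test, as 1 library each of 1 condition. Of 2060 genes whose AT2 level averaged 50 CPM or more, 52 (2.52%) were at least 2-fold higher in library 2 and 35 (1.70%) in library 1, or 4.22% in all, and 84.3% were within 1.5-fold. *Napsa*, *Abca3*, *Lamp3* and the 4 surfactant protein genes were within 1.5-fold, and *Slc34a2* was 1.52-fold higher in library 2. Ratios are given with exact 95% intervals of the counts. *Dbp*, an output gene of the circadian clock, had 27 UMIs in 942 cells and 142 in 102 cells, 3.102 and 98.9 CPM, a ratio of 31.9 (21.02 to 50.1). Fibroblasts of the same libraries had a ratio of 23.1. *Nr1d1*, a repressor of the clock, was 6.57-fold higher in library 2 and 5.78-fold in fibroblasts. Of other clock genes, named after their values were seen, *Tef* was 7.74-fold, *Nr1d2* 5.38-fold, *Per1* 3.45-fold and *Per3* 3.15-fold higher in library 2, against 6.04, 5.35, 2.44 and 3.52 in fibroblasts. *Arntl*, an activator of the clock, was 7.22-fold higher in library 1, and 7.75-fold in fibroblasts. *Per2* was 3.71-fold (5.48 in fibroblasts) and *Ciart* 8.66-fold (42.6 in fibroblasts) higher in library 2, both under 20 CPM in each group. *Npas2* had 17.3 CPM and no UMI in AT2 cells, and 13.7 and 0.539 CPM in fibroblasts. *Clock* was 1.16-fold higher in library 1 in AT2 cells and 1.12-fold higher in library 2 in fibroblasts, and the other clock genes examined differed in the same direction in both groups.

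Other ratios were also shared with fibroblasts. *Gm42418*, a transcript that overlaps ribosomal RNA, had 15075 and 71492 CPM in AT2 cells, 4.74-fold higher in library 2 (3.62 in fibroblasts), and *Lars2*, *Neat1*, *Glul* and *Mbd1* were 3.43- to 5.18-fold higher (2.38 to 3.72 in fibroblasts). *Gstp1*, a glutathione transferase, was 13.8-fold higher in library 1 (15.8 in fibroblasts), *Gm10076* 8.57-fold (8.98) and *Atf3*, an immediate early gene, 2.89-fold (3.03). Some genes differed in AT2 cells and less or the other way in fibroblasts. *Hopx* was 4.49-fold higher in library 2 in AT2 cells and 1.06-fold in fibroblasts. *Hbegf*, a ligand of the EGF receptor, was 3.69-fold higher in library 1, from 87.4 to 23.7 CPM, against 1.52-fold in fibroblasts. *Klf4* was 3.22-fold higher in library 1 against 1.76-fold. *Rapgef5* was 2.70-fold higher in library 1 in AT2 cells and 4.65-fold higher in library 2 in fibroblasts. *Fabp5* was 2.04-fold higher in library 1 in AT2 cells and 1.19-fold in fibroblasts. In 2 further genes the direction was the same and fibroblasts had under 1 CPM. *Cyp2b10*, an enzyme of xenobiotic metabolism, had 20.5 and 163.7 CPM in AT2 cells, 8.01-fold higher in library 2, and 0.0847 and 0.785 CPM in fibroblasts (9.26-fold). *Areg* was 2.27-fold higher in library 1 in AT2 cells and 3.45-fold in fibroblasts.

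**Figure D4:**
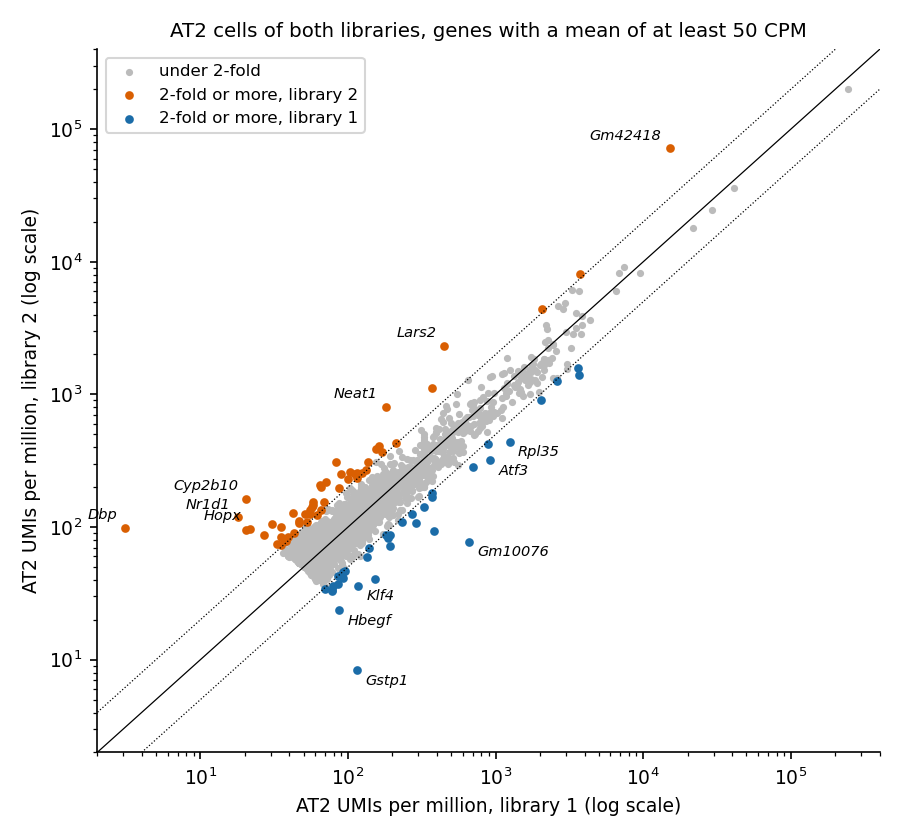
AT2 levels of 2060 genes in library 1 (horizontal) and library 2 (vertical) in CPM on log axes, with the line of equality and dotted lines at 2-fold; orange genes are at least 2-fold higher in library 2 and blue genes in library 1. Most genes lie between the dotted lines, *Dbp* lies farthest to one side and *Gstp1* to the other.

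Variation from cell to cell was measured after each AT2 cell was thinned to 2000 UMIs, which left out 11 cells of library 1. The Fano factor, the variance over the mean of the counts, was near 1, the value of pure counting, for most of 843 genes, with medians of 1.06 and 1.09. At the same relative spread it grows with the mean, so genes of few UMIs can lie near 1 and still vary. Abundant genes such as *Sftpc*, with means of 482 and 400 UMIs, can rank high at a small relative spread. *Lyz1* had the highest value in library 1, 42.0, and had 22.8 in library 2. It was detected in 285 cells of library 1 (30.3%) and 28 of library 2 (27.5%) without thinning, and 158 and 18 cells with at least 5 UMIs held 99.2% of its UMIs in each library. *Lyz1* was thus near absent from most AT2 cells and abundant in the others, in similar shares in both libraries. *Lyz2*, at 12.4 and 10.8, varied less. *Sftpc* had 21.5 and 23.1, with a 5th to 95th percentile of 328 to 650.0 UMIs of 2000 in library 1.

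*Malat1* (16.7 and 21.7) and *Gm42418* (15.8 and 35.3) lay above *Lyz2*, and *Gm42418* had the highest of these values in library 2. Below *Lyz2* came *Sftpa1* (6.07 and 6.51), *Gsn* (3.78 and 7.61), *Scd1* (4.06 and 3.26), *Cxcl15* (2.76 and 2.50), *Fos* (2.55 and 2.43) and *Lcn2* (2.40 and 3.05). *Gsn*, an actin-severing gene, had a mean of only 0.424 and 0.667 UMIs. Of the 15 genes with the highest Fano factors 12 were the same when cells were thinned to 5000 UMIs.

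**Figure D5:**
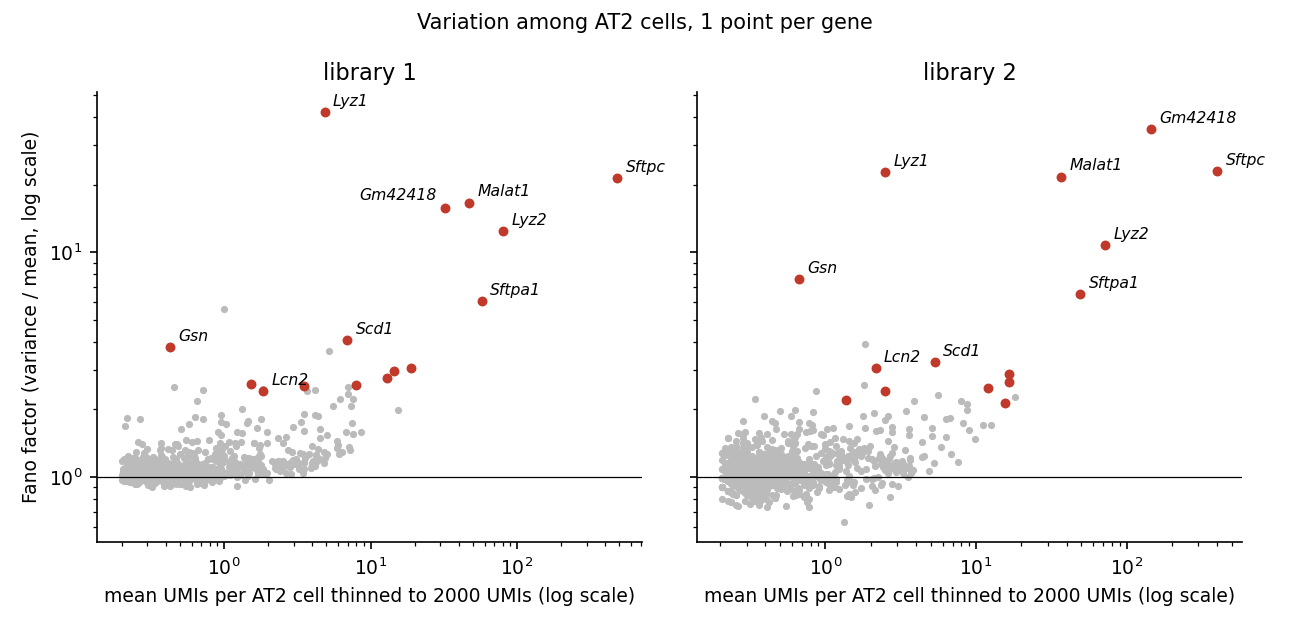
Fano factor of each gene against its mean UMIs per AT2 cell thinned to 2000 UMIs, on log axes, for library 1 and library 2. A line marks 1, the value of pure counting, and the 15 genes ranked highest by the lower of the libraries' Fano factors are in red. *Lyz1* stands out for a gene of its mean in both libraries, at 42.0 and 22.8, and most genes lie near the line.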

How the data were processed

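Per the labels and the study's methods, cells were sorted by their fluorescence after digestion of the lungs with pronase and collagenase, and libraries were prepared with the 10x Genomics 3′ chemistry (v3.1). The authors deposited raw UMI counts per gene and barcode, made with Cell Ranger 5.0.1 against mm10 according to the submitters' processing notes. The counts were not normalized. Cells under 200 genes or over 10% mitochondrial UMIs were left out. No doublet caller was run. The clauses against fibroblast, endothelial and immune transcripts removed barcodes beyond their limits, but some members still held UMIs of the fibroblast genes. No clause was set against alveolar type 1 transcripts, so mixed barcodes may remain. The members, the gene lists and the genes given with a test were chosen with earlier results of these data known, and the comparisons with endothelial and immune cells and the fit without a normalization factor were added after the data had been seen, because no cell met the marker rule for club cells and none of library 1 that for alveolar type 1 cells.

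UMIs were summed per library and group. AT2, fibroblast, endothelial and immune sums were fitted together in edgeR 4.0.16 under R 4.3.3 (TMM, default low-count filter, quasi-likelihood F test, two-sided, library as a block, 3 residual degrees of freedom), and p-values were adjusted by the Benjamini-Hochberg method over all genes tested. The threshold was an adjusted p of 0.05. Every adjusted p in the text is from this fit unless DESeq2 1.42.0, the lack of a normalization factor or the lack of the block is named with it. The fit was tested on simulated counts. The genes named are members of the fixed lists, the 10 genes with the largest library ratio in each direction, and the 15 genes with the highest Fano factor in the lower of the 2 libraries, which also needed a mean of at least 0.2 thinned UMIs. A few members of these sets are not reported here and stand in no list count. Fibroblasts had at least 0.5% of UMIs from the 6 fibroblast genes, endothelial cells at least 3 UMIs of *Cdh5* and *Pecam1*, and immune cells *Ptprc* and *Laptm5*, each without markers of the others. Shares of cells were computed after thinning to 2000 UMIs with a fixed seed, which left out 11 and 0 AT2 cells and 628 and 29 fibroblasts of libraries 1 and 2. Alternatives were DESeq2, no low-count filter, no library block, no normalization factor, other limits on cells, and each library alone. Scripts were run in Python 3.11.15 with numpy 2.4.6, scipy 1.17.1, pandas 2.3.3 and matplotlib 3.10.9.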

Additional observations from a re-analysis of the deposited data

How the results depend on the processing

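Without a normalization factor, added after the data had been seen, AT2 cells had 1738 genes higher and 5385 lower than fibroblasts, in place of 2685 and 2839, and 1359 higher and 5024 lower than endothelial cells, in place of 2339 and 2397; the log2 fold change of *Ces1d* over fibroblasts became -0.14. The TMM factors were 0.704 and 0.765 for AT2 cells, 1.06 and 1.14 for fibroblasts and 1.41 and 1.26 for endothelial cells. Leaving them out therefore lowers every AT2 fold change over these groups. Why the factors differ was not tested. Without the replicate block for library, 1999 genes were higher and 2207 lower than in fibroblasts, 1863 and 1975 than in endothelial and 2407 and 2064 than in immune cells. The libraries pair the groups because the groups of a library come from the same sorted cells. DESeq2 called 2335 higher and 2154 lower than in fibroblasts. With a mitochondrial limit of 5%, library 2 kept 64 AT2 cells. With 1 library left out the total of AT2 cells ranged from 102 to 942. Between the libraries, a mean of at least 20 CPM gave 135 genes higher in library 2 and 64 in library 1, and at least 100 CPM gave 28 and 21. Of 352 values of 44 named genes under the other settings, 344 kept their direction and side of the threshold. All 88 values from 1 library, which have no test, kept their direction. One setting, *Sftpc* at least 5%, kept all 942 and 102 AT2 cells and so repeats the main fit. Its values among the 352 had to agree and are no support. Club and alveolar type 1 comparisons were not run, for lack of cells. Library 2 held 102 AT2 cells, and levels under 2.09 CPM there rest on fewer than 3 UMIs.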
